A study of Mus musculus with 16 samples.

Results

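The genes described here are 10 mouse genes of extracellular proteolysis, namely the matrix metalloproteases Mmp2, Mmp9 and Mmp23, the tissue inhibitors of metalloproteases Timp2, Timp3 and Timp4, the secreted metalloproteases Adamts1 and Adamts4, the tissue plasminogen activator gene Plat and the urokinase receptor gene Plaur. They were chosen by gene symbol, as the probes to which the platform annotation gives one of these symbols alone. All 10 were found, on 12 of 15247 probes, among 7114 named genes. Plat and Timp3 had 2 probes each and the other genes 1.

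By its title the series concerns mutations of Met, the receptor of hepatocyte growth factor, in MEFs, commonly mouse embryonic fibroblasts, and its arrays compared total RNA of the cell types WT and M833. Every array was hybridised with RNA of 1 cell type and with a common reference, each in its own dye. There were 8 arrays per cell type, 4 with the cell sample in Cy5 and 4 with it in Cy3. The meaning of M833 is not explained in the labels, nor which Met allele the cells carry, how many cultures or embryos they came from, or the make-up of the reference. Values are log2 ratios, read as cell sample over reference, a direction that the titles make likely and no label states. Met itself had no probe under its symbol.

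Matrix metalloproteases are zinc-dependent enzymes that are made as inactive precursors and cut collagens, laminins and other matrix proteins once activated. TIMPs bind the active site of these enzymes and block it, and Timp2 also takes part in the activation of the Mmp2 precursor at the cell surface. ADAMTS enzymes are related secreted metalloproteases with thrombospondin repeats, several of which cut proteoglycans such as aggrecan and versican. Tissue plasminogen activator and urokinase turn plasminogen into plasmin, a broad serine protease, and the urokinase receptor holds urokinase at the cell surface. Hepatocyte growth factor, the ligand of Met, is itself secreted as a precursor that serine proteases cleave.

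The number of arrays limited the precision of all values. Array medians lay between -0.02 and 0.07, and pairs of arrays correlated with r of at least 0.591 over all probes, or 0.818 without WT replicate 2. That array held 49 values above 8 on the log2 scale, none of them on a probe of the 10 genes. WT replicates 1, 2, 5 and 6 deviated together from WT replicates 3, 4, 7 and 8. After cell type and dye means were taken out, Spearman correlations over 12761 features ran from 0.28 to 0.59 within these sets and from -0.65 to -0.28 between them. In M833 they ran from -0.26 to 0.25 within the sets of the same numbers and from -0.42 to 0.01 between them. The labels do not mention such sets and nothing in them says that arrays came from separate cultures, so that p-values measure the spread between arrays, which may be technical. RNA was taken from whole cultures, in which fewer cells of a type and less RNA per cell cannot be told apart.

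Timp2, Mmp23, Adamts4 and Plat were lower in M833 than in WT, by 1.31-fold to 1.59-fold, and Timp4 was 1.27-fold higher. The other 5 genes, Mmp2, Mmp9, Timp3, Adamts1 and Plaur, did not pass the test. In limma with cell type and dye orientation in the model, 5 of the 10 genes were called, against 25.9% of all features. Of these 4 were lower, against 15.9% of all features, and 1 was higher. The 10 genes and the gene lists below were chosen with earlier results of these data known, so that such shares are descriptions. The median log2 difference of the 10 genes was -0.21, against -0.03 over all 12761 features. Called means an adjusted p under 0.05, adjusted by Benjamini-Hochberg over all features. Of all features 1276 were called higher and 2025 lower, and with each array centred on its median 1598 were higher and 1577 lower. The 4 decreases kept their calls in 32 of 33 alternative settings for Timp2, Mmp23 and Adamts4 and in 33 of 34 for Plat, and Timp4 kept its call in 13 of 33. The exception for the 4 decreases was the mean of each set of 4 arrays as 1 replicate, where limma called 0 of 12761 features and 1675 had an unadjusted p under 0.05. In that setting 5 of the 10 genes, the 4 decreases and Timp4, had an unadjusted p under 0.05. The adjusted p of each of the 4 decreases was 0.271 there (limma). Of the alternative settings 16 left out a single array each. Only the set means and a fit with sets of 4 arrays as a random block did not treat arrays as independent.

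**Figure D1:**
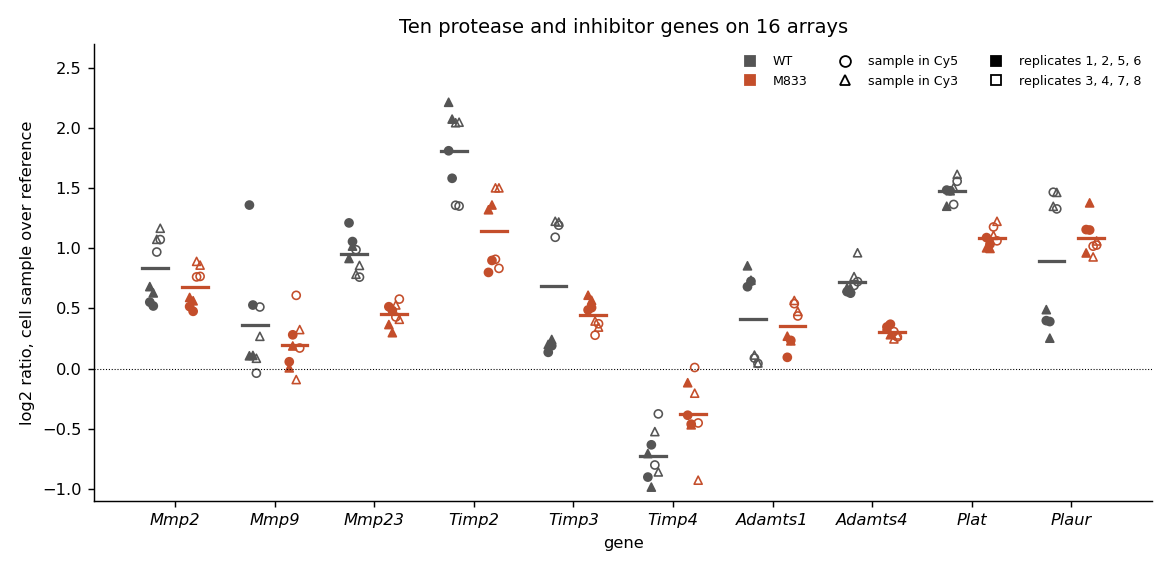
Log2 ratio of cell sample over reference for the 10 genes on each of 16 arrays, with WT in grey, M833 in orange, circles for the sample in Cy5, triangles for Cy3, filled points for replicates 1, 2, 5 and 6, open points for replicates 3, 4, 7 and 8, and a bar at the mean of 8 arrays. Mmp23, Adamts4 and Plat lie lower on every M833 array than on any WT array, and the WT arrays of Plaur and Timp3 form separate groups.

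Among the metalloproteases Mmp23 fell and the gelatinase genes did not pass the test. Mmp23, which encodes a small membrane-anchored metalloprotease without the hemopexin domain of most of its family, ran from 0.76 through a median of 0.95 to 1.21 on the WT arrays. On the M833 arrays it ran from 0.30 through 0.46 to 0.58, so that the groups did not overlap. The log2 difference was -0.50 ± 0.06 (SE, n = 8 per cell type; adjusted p = 1.32e-05, limma), a 1.41-fold lower level. All 8 M833 arrays lay below all 8 WT arrays in 2.77% of all features, and among the 10 genes in 3, Mmp23, Adamts4 and Plat. Mmp2 encodes gelatinase A, the main gelatinase of fibroblasts. It ran from 0.52 through 0.83 to 1.17 in WT and from 0.48 through 0.68 to 0.89 in M833. These ranges overlapped, and the difference was -0.15 ± 0.10 (adjusted p = 0.291, limma). With array weights it was -0.28 and called (adjusted p = 0.0336, limma). Mmp9, which encodes gelatinase B, an enzyme of macrophages and neutrophils among other cells, ran from -0.04 through 0.19 to 1.36 in WT. The M833 values of Mmp9, from -0.09 through 0.18 to 0.61, lay within the range of WT or just below it. Its difference was -0.17 ± 0.15 (adjusted p = 0.421, limma), and it was -0.04 without WT replicate 1, the array with the value of 1.36.

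Of the TIMP genes Timp2 fell, Timp3 did not pass the test, and Timp4 rose with a call that most settings lost. Timp2 ran from 1.35 through 1.93 to 2.22 on the WT arrays and from 0.80 through 1.11 to 1.50 on the M833 arrays. The overlap came with the dye, since ratios of Timp2 were lower by 0.57 with the sample in Cy5. Within each dye orientation all 4 M833 arrays lay below all 4 WT arrays, as they did in 6.49% of all features. The difference of Timp2 was -0.67 ± 0.06 (SE, n = 8 per cell type; adjusted p = 1.58e-06, limma), at -0.67 with the sample in Cy5 and -0.67 with it in Cy3. Only 1.39% of all features differed by as much or more. After scaling between arrays it was -0.41 and still called. Timp3, whose protein stays bound to the matrix and also inhibits several ADAM and ADAMTS enzymes, ran from 0.14 through 0.67 to 1.23 in WT and from 0.28 through 0.44 to 0.61 in M833. The M833 range lay inside the WT range, and the difference of -0.24 ± 0.18 did not pass (adjusted p = 0.359, limma). With array weights it was -0.45 and called (adjusted p = 0.026, limma). The probes of Timp3 were alike, at -0.28 and -0.20. Timp4 ran from -0.99 through -0.75 to -0.38 in WT and from -0.93 through -0.42 to 0.01 in M833, with overlap. Timp4 was higher in M833 by 0.35 ± 0.12 (adjusted p = 0.0407, limma), and 7 of 8 M833 arrays lay above the WT mean. This call was lost without any one of 10 of the 16 arrays, with adjusted p from 0.0505 to 0.0811. These were WT replicates 1, 3, 5, 6 and 8 and M833 replicates 1, 3, 5, 6 and 7. It was also lost with sets of 4 arrays as a random block (adjusted p = 0.318, limma) and after scaling between arrays, at 0.25 (adjusted p = 0.117).

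The TIMP genes are shown with the 250 bases before their starts in RefSeq (GRCm38.p6), because they lie on different chromosomes and their values differed. Only the decrease of Timp2 kept its call in most settings, and no link between these bases and the values was tested. Capitals mark GGGCGG or its reverse complement CCGCCC, the core of a site for Sp1 and related factors. One of the 2 occurs in 32.7% of 32851 such windows of mouse genes. The window of Timp2 is chr11:118355412-118355661 on the minus strand, that of Timp3 chr10:86300162-86300411 on the plus strand and that of Timp4 chr6:115252206-115252455 on the minus strand.
Timp2: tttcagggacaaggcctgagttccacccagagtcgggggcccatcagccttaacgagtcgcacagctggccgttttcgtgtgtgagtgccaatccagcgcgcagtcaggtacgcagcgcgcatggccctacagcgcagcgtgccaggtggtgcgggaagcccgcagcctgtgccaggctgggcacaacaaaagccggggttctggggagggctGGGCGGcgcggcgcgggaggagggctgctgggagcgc
Timp3: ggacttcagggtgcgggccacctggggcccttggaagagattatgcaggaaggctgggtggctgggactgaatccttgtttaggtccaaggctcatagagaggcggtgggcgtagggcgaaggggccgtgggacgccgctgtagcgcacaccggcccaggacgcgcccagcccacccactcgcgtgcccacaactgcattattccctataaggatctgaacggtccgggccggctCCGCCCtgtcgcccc
Timp4: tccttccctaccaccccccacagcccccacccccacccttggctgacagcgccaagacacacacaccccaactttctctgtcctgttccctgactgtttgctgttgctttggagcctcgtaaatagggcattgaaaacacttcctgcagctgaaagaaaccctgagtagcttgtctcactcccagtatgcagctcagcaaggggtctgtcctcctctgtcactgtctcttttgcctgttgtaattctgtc
The windows of Timp2 and Timp3 held 1 match each and that of Timp4 0. The dinucleotide CG occurred 21 times in the window of Timp2, 18 times in that of Timp3 and 2 times in that of Timp4. At least as many occurred in 16.3%, 21.7% and 81.2% of the 32851 windows. The GC contents of the Timp2, Timp3 and Timp4 windows were 68.0%, 65.6% and 53.6%.

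Of the ADAMTS genes Adamts4 fell and Adamts1 did not pass the test. Adamts4, which encodes an aggrecan-cutting enzyme, ran from 0.63 through 0.68 to 0.96 on the WT arrays and from 0.25 through 0.29 to 0.37 on the M833 arrays. The groups did not overlap, and the highest WT value came from replicate 8, with the next at 0.76. The difference of Adamts4 was -0.41 ± 0.04 (SE, n = 8 per cell type; adjusted p = 6.33e-06, limma), a 1.33-fold lower level. It was -0.35 with the sample in Cy5 and -0.48 with it in Cy3. Adamts1, whose product cuts versican and aggrecan, ran from 0.04 through 0.40 to 0.85 in WT and from 0.09 through 0.35 to 0.57 in M833. The M833 range lay inside that of WT. Its difference was -0.05 ± 0.14 (adjusted p = 0.796, limma), and it was 0.01, in the other direction, after scaling between arrays.

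In the plasminogen system Plat fell and Plaur did not pass the test. Plat ran from 1.35 through 1.48 to 1.62 on the WT arrays and from 0.999 through 1.08 to 1.23 on the M833 arrays, without overlap. The difference of Plat was -0.39 ± 0.04 (SE, n = 8 per cell type; adjusted p = 1.35e-05, limma), a 1.31-fold lower level. Both of its probes were called, at -0.33 ± 0.06 and -0.45 ± 0.06. After scaling between arrays the difference was -0.16, still called (adjusted p = 0.0432, limma). Plaur encodes a receptor anchored in the membrane by a lipid. It ran from 0.25 through 0.91 to 1.47 in WT and from 0.93 through 1.04 to 1.38 in M833. All 8 M833 arrays lay above the WT mean and inside the WT range, and the difference of 0.19 ± 0.19 did not pass (adjusted p = 0.487, limma).

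The WT arrays of Plaur, Timp3, Adamts1 and Mmp2 took separate levels in the sets named above. For Timp3 all 8 M833 arrays lay between these levels, and for Plaur and Adamts1 7 of 8 did. As the sets were found on these arrays, the levels are a description without a test. Plaur was at 0.25 to 0.49 on WT replicates 1, 2, 5 and 6 and at 1.33 to 1.47 on WT replicates 3, 4, 7 and 8. Its set means differed by 1.02, or 2.03-fold, in WT, a size reached by 1.35% of all features. This is larger than any difference of the 10 genes between the cell types, and it was 1.04 on the arrays with the sample in Cy3. Timp3 was at 0.14 to 0.24 on the first set and at 1.09 to 1.23 on the other, 0.99 apart, which 1.42% of features reached. Adamts1 went the other way, with 0.68 to 0.85 on WT replicates 1, 2, 5 and 6 and 0.04 to 0.11 on WT replicates 3, 4, 7 and 8. For Mmp2 the WT sets lay at 0.52 to 0.68 and at 0.97 to 1.17. The M833 arrays of Mmp2 split in the same direction by less, at 0.48 to 0.59 on replicates 1, 2, 5 and 6 and at 0.76 to 0.89 on replicates 3, 4, 7 and 8. In M833 Adamts1 split in the opposite direction to WT, at 0.09 to 0.27 and 0.44 to 0.57. Timp3 was also turned, at 0.49 to 0.61 and 0.28 to 0.40 in M833. Set means of Timp2, Mmp23, Adamts4 and Plat differed by 0.06 to 0.22 in WT, less than their differences between the cell types.

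**Figure D2:**
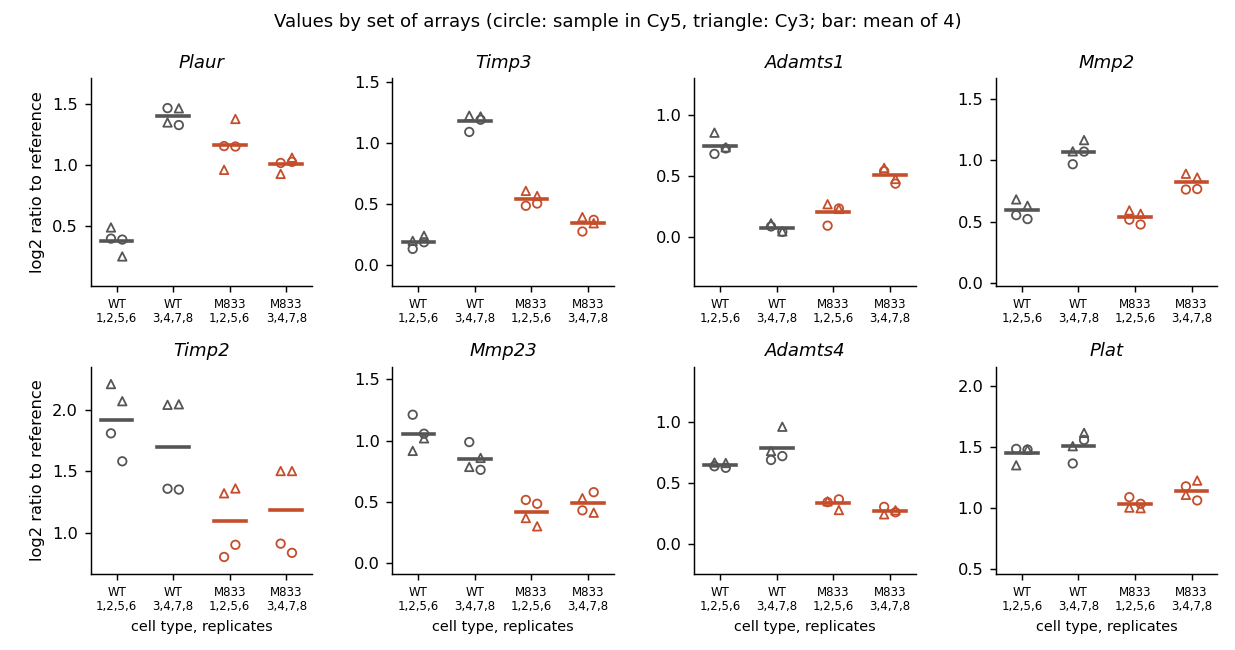
Log2 ratio to the reference for 8 genes, each panel with the WT arrays in grey and the M833 arrays in orange by replicate numbers, circles for the sample in Cy5, triangles for Cy3, and bars at the mean of 4 arrays; panels differ in offset and share a span. In the upper row Plaur and Timp3 are lower on WT replicates 1, 2, 5 and 6 than on WT replicates 3, 4, 7 and 8, by 1.02 and 0.99, while in the lower row the means of both WT sets lie above those of the M833 sets.

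The values of Plaur, Timp3, Adamts1 and Mmp2 depended on which WT arrays stood for WT. Since the sets were found on these arrays, and a fit to part of them takes its spread within sets that may hold technical repeats, these values and calls are descriptions. Against WT replicates 1, 2, 5 and 6 alone, Plaur was higher in M833 by 0.70 ± 0.08, and against WT replicates 3, 4, 7 and 8 alone it was lower, at -0.32 ± 0.07. Timp3 was at 0.25 ± 0.06 and at -0.74 ± 0.06 in the same settings, and Adamts1 at -0.39 ± 0.09 and 0.28 ± 0.08. Mmp2 was at 0.08 ± 0.08 and at -0.39 ± 0.08. Timp2 (-0.78 and -0.56), Mmp23 (-0.60 and -0.40), Adamts4 (-0.35 and -0.48) and Plat (-0.36 and -0.42) were lower against either set. Against the first WT set 5 of the 10 genes were lower and 3 higher, where 21.8% and 14.5% of all features were. Against the other 7 were lower and 1 higher, where 20.1% and 13.8% of all features were. With sets of 4 arrays as a random block (correlation 0.32), Timp2, Mmp23, Adamts4 and Plat were called lower with adjusted p of at most 0.00135 (limma), where 7.08% of all features were lower.

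**Figure D3:**
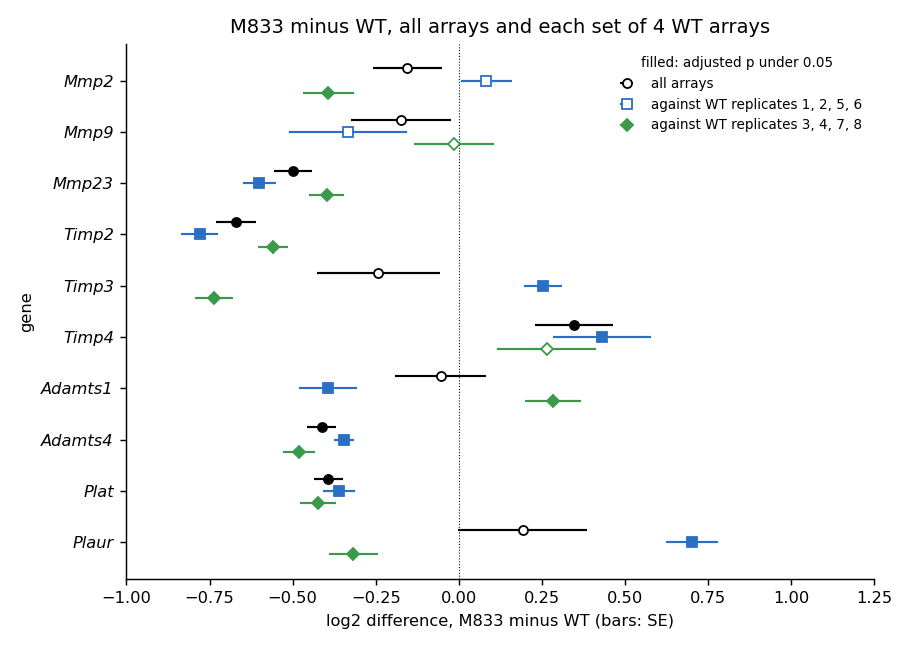
Log2 difference of M833 minus WT for the 10 genes with its SE, from all 16 arrays (black circles), against WT replicates 1, 2, 5 and 6 alone (blue squares) and against WT replicates 3, 4, 7 and 8 alone (green diamonds); filled symbols have an adjusted p under 0.05. Timp2, Mmp23, Adamts4 and Plat are below 0 with filled symbols in all 3, and Plaur, Timp3 and Adamts1 lie on opposite sides of 0 against the separate WT sets.

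Plaur is shown with the 250 bases before a start that RefSeq gives it, chr7:24462233-24462482 on the plus strand (GRCm38.p6), because its WT levels differed most among the 10 genes. Capitals mark GGGCGG on either strand, with 3 adjoining or overlapping matches in 1 run, and 1 match to TGACTCA, the reverse complement of TGAGTCA, the core of a site for AP-1 factors. The latter begins at -69 from the start, and one of the 2 orientations occurs in 4.46% of the 32851 windows.
Plaur: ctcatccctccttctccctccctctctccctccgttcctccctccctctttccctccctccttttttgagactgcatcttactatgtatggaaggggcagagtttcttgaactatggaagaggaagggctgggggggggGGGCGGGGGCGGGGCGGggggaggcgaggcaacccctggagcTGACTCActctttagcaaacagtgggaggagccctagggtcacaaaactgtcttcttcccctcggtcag
TATAAA and a motif for NF-kB, searched on both strands too, had 0 matches in the 4 windows printed. The windows of Mmp23, Timp2, Timp3, Timp4 and Adamts1 held 0 matches to TGAGTCA on either strand, and none was at hand for Mmp2, Mmp9, Adamts4 and Plat.

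Within each family the pairs of genes were compared for unequal differences between the cell types, by an exact two-sided permutation of the 16 arrays within dye orientations. There were 8 pairs and p-values were adjusted over them. Timp2 and Timp4 differed by unequal amounts, with a difference between their M833 minus WT values of -1.02 ± 0.16 (SE, n = 8 per cell type). This pair had the smallest p that 4900 permutations can give, 0.000408, with an adjusted p of 0.00327. Timp3 less Timp4 was -0.59 ± 0.21 (adjusted p = 0.0457, exact permutation), and Plat less Plaur was -0.58 ± 0.21 (adjusted p = 0.0457, exact permutation). The value of Plat less Plaur was -0.11 ± 0.12 against WT replicates 3, 4, 7 and 8 alone and was not called. That of Timp3 less Timp4 was -0.18 ± 0.17 against WT replicates 1, 2, 5 and 6 alone. Mmp2 less Mmp23 (0.34 ± 0.15), Mmp9 less Mmp23 (0.32 ± 0.16), Timp2 less Timp3 (-0.43 ± 0.26), Adamts1 less Adamts4 (0.36 ± 0.19) and Mmp2 less Mmp9 (0.02 ± 0.22) did not pass, with adjusted p from 0.089 to 0.927 (exact permutation). If sets of 4 arrays are the units, the smallest possible p is 0.333.

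Against the common reference 9 of the 10 genes were higher in WT and Timp4 was lower, in limma, where 43.5% of all features were higher and 35.8% lower. In M833 8 were higher and Timp4 was lower, where 36.3% and 36.1% of features were, and Mmp9 at 0.19 ± 0.11 (SE) did not pass (adjusted p = 0.117, limma). The medians of Mmp9 were alike, at 0.19 in WT and 0.18 in M833. Its WT mean of 0.37 included the value of 1.36 on replicate 1. Timp2 was 3.51-fold above the reference in WT and 2.21-fold in M833. Plat was 2.79-fold above it in WT and 2.13-fold in M833. Timp4 lay at -0.72 in WT and at -0.38 in M833. The interaction of cell type with dye orientation was called in 0 of 12761 features (limma), with 361 at an unadjusted p under 0.05, so that unequal differences in the dye orientations were not detected for any of the 10 genes. The largest such inequality among them was that of Mmp9, at -0.31 with the sample in Cy5 and -0.04 with it in Cy3.

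Related genes were taken from lists of proteases, their inhibitors and the plasminogen system, without the 10 genes above. Among 31 measured genes there were 10 decreases and 1 increase, and 20 were not called, where 15.9% of all features were lower. When sets of arrays were a random block, 5 of the 31 were lower and 0 higher, where 7.08% of all features were lower. Their median log2 difference was -0.06, against -0.03 over all features. Serpinf1, a secreted serpin without inhibitor activity, fell by 0.76 ± 0.12 (SE, n = 8 per cell type; adjusted p = 0.000223, limma), and Pcolce, which enhances the removal of procollagen C-propeptides, by 0.59 ± 0.06. Bsg, encoding basigin, a membrane protein known to induce metalloproteases in fibroblasts, fell by 0.49 ± 0.04, and the astacin family protease gene Astl by 0.37 ± 0.04. In the plasminogen system Lrp1, an endocytic receptor that clears protease and inhibitor complexes, fell by 0.32 ± 0.05. Anxa2, whose product binds plasminogen and its tissue activator, was higher by 0.13 ± 0.05 (adjusted p = 0.0499, limma). Anxa2 was not called with sets of 4 arrays as a random block (adjusted p = 0.325) nor without any one of 3 of these 4 sets. Of the other metalloproteases the membrane-bound Adam8 fell by 0.47 ± 0.16, and its value was -0.05, not called, without WT replicates 1, 2, 5 and 6. The 4 other ADAM genes measured, Mmp7 and 6 other genes of the ADAMTS list, which includes the ADAMTS-like gene Adamtsl1, did not pass the test. The 5 that were lower with the random block were Serpinf1, Pcolce, Bsg, Astl and Lrp1. Against WT replicates 1, 2, 5 and 6 alone 8 of the 31 were lower and 5 higher, where 21.8% and 14.5% of all features were. Against WT replicates 3, 4, 7 and 8 alone 12 were lower and 2 higher, where 20.1% and 13.8% of all features were.

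Genes of matrix proteins that such enzymes cut were also counted. Among 18 measured genes there were 7 decreases and 0 increases, where 15.9% of all features were lower, 11 were not called, and the median was -0.17. When sets of arrays were a random block, 4 of the 18 were lower, where 7.08% of all features were. Col1a2 fell by 0.87 ± 0.08, and the fibulin gene Fbln2 (-0.48 ± 0.10), the fibronectin gene Fn1 (-0.38 ± 0.06) and the biglycan gene Bgn (-0.38 ± 0.09; SE, n = 8 per cell type) were also lower. After scaling between arrays Fbln2 (-0.10), Fn1 (-0.05) and Bgn (-0.09) were not called. Dcn (-0.76) and Lamc1 (-0.18), not called in the main fit, were called lower after scaling. Versican, a substrate of Adamts1 and Adamts4, differed by -1.63 ± 1.37 (Vcan, adjusted p = 0.403, limma). The highest WT array of Vcan was at 12.16, on replicate 2, the only array with values above 8. The difference was 0.06 without WT replicates 1, 2, 5 and 6, a setting that also takes out this array. Against WT replicates 1, 2, 5 and 6 alone 6 of the 18 were lower and 5 higher, where 21.8% and 14.5% of features were. The 5 higher genes were Col4a1, Col4a2, Lama1, Lamb1 and Tnc. Without these WT replicates 11 of the 18 were lower and 0 higher, where 20.1% and 13.8% of features were. The same 5 genes were called lower there, namely Col4a1 at -0.32, Col4a2 at -0.27, Lama1 at -0.55, Lamb1 at -0.42 and Tnc at -0.71.

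**Figure D4:**
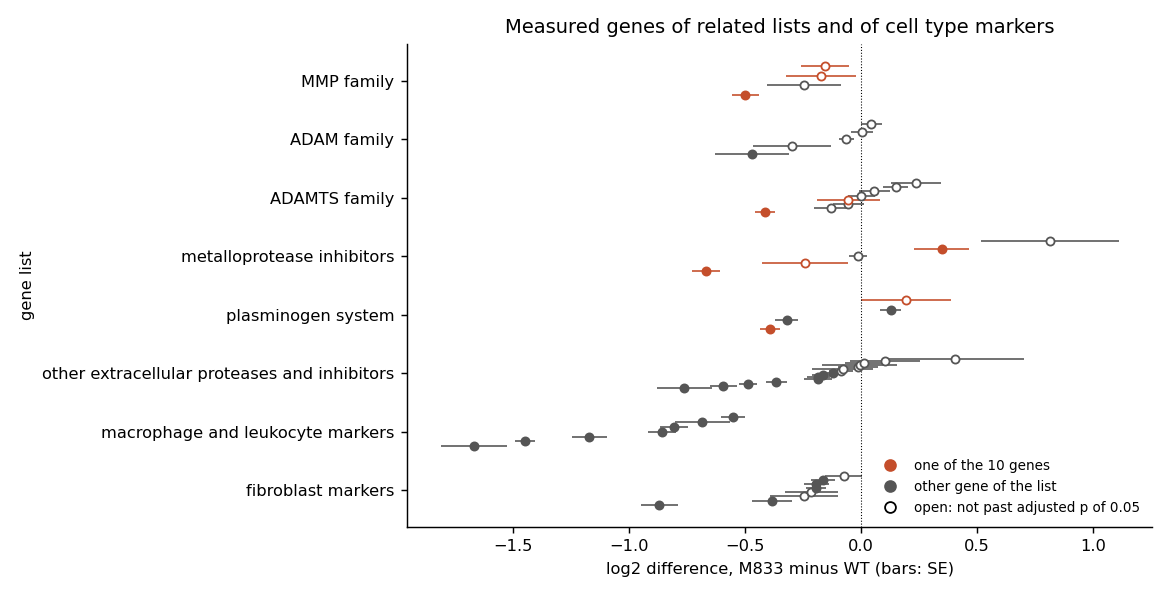
Log2 difference of M833 minus WT with its SE for the measured genes of 6 related lists and 2 marker lists, 1 point per gene, orange for the 10 genes and grey for others; open points did not pass an adjusted p of 0.05. All 7 macrophage and leukocyte markers lie below -0.5.

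Markers of some other cell types moved with the comparison. Of 19 macrophage and leukocyte markers 7 had a probe. All 7 fell, where 15.9% of all features did, and their median was -0.86. With sets of 4 arrays as a random block all 7 were still called lower, where 7.08% of all features were. The highest adjusted p there was 0.0161, for Laptm5 (limma). In WT the mean of the 7 lay between -0.46 and -0.28 on single arrays, and in M833 between -1.60 and -1.29. Ptprc, Csf1r, Adgre1, Itgam and Cd68 had no probe under these symbols. The part of these cells in the decreases of Timp2, Mmp23, Adamts4 and Plat was not tested. Between the WT sets the markers moved in different directions, with set differences of -0.72 for Lyz2, 0.33 for Laptm5 and 0.25 for C1qa, and their part in the set differences of Plaur, Timp3, Adamts1 and Mmp2 was not tested. Of 8 measured fibroblast markers 5 fell, where 15.9% of all features did, with a median of -0.20. Among these decreases Col1a1, Col1a2 and Lum were also counted with the matrix genes above. With sets of arrays as a random block 2 were lower, where 7.08% of all features were. Vim and Pdgfrb were above the reference in WT, at 1.04 and 1.12, and Dcn and Lum below it, at -2.56 and -2.41, so that a ratio to this reference does not settle the cell type. All 4 measured skeletal muscle markers rose (median 0.54), where 1276 of 12761 features were higher. Against the reference WT lay at -5.53 for Mylpf, -4.51 for Actn2, -2.20 for Tnnt1 and 0.15 for Myl4. Whether ratios as low as those of Mylpf and Actn2 rest on signal above background is unknown. Myl4 was near the limit (adjusted p = 0.0496, limma). The WT sets of Mylpf differed by 1.02, beside a rise of 1.04 between the cell types. Of 3 endothelial and 7 epithelial markers 0 passed the test, where 25.9% of all features did. No alternative setting was run for the muscle, endothelial and epithelial lists, and the part of such cells was not tested.

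The patterns of the 10 genes over the 16 arrays, with dye means taken out, fell into separate kinds. These correlations are descriptions over arrays that share the reference and the sets of arrays. Mmp23, Timp2, Adamts4 and Plat correlated with one another, with Pearson r from 0.81 to 0.96. Timp3 and Plaur correlated with r of 0.80, Mmp2 and Timp3 with 0.77, and Adamts1 ran against Plaur with -0.91. Among all named genes Timp2 was most like Chpf, Slc30a4 and Nxn (r from 0.98 to 0.98), and Mmp23 most like Npr2, Cox7a2l and Tmed9 (r from 0.96 to 0.97). Adamts4 was most like Pdrg1, Ctsz and Ptp4a3 (r from 0.97 to 0.98) and Plat most like Tvp23b, Plekhm1 and Nupr1 (r from 0.96 to 0.96). Cell type was left in these correlations, so that genes most like the 4 were lower in M833 by construction, as all 12 were, and the r among the 4 restates their shared decrease. Timp3 was most like Nrep, Ddhd1 and Ehd1 (r from 0.98 to 0.99), Plaur most like Hspb1, Sfn and Mapk6 (r from 0.97 to 0.97), and Adamts1 most like Antxr1, Klf4 and Gpsm2 (r from 0.96 to 0.97). Mmp2 was most like Mfap4, Gorasp2 and Flrt2 (r from 0.93 to 0.95), Mmp9 most like Ubac1, Nr0b2 and Sf3b6 (r from 0.91 to 0.92), and Timp4 most like Spock2, Muc1 and Hcfc2 (r from 0.95 to 0.97). None of these 18 genes passed the test between the cell types. This was likely in advance, as they were chosen by likeness to genes that were not called or, for Timp4, barely called.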

How the data were processed

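RNA extraction used Trizol and labelling used reverse transcription, per the labels' protocols. The deposited values are log2 ratios that the authors had normalised, with limma per the submitters' processing notes. For its version, background correction, normalisation and filters, the sources used here give nothing. The log2 scale and the direction were inferred, from the range of the values and from the titles. Channel intensities were not used here, so dim probes could not be left out.

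Of 15247 probes 9600 had 1 gene symbol, 214 several and 5433 none, in an annotation that is old. Of the first 9492 were matched by Entrez number to RefSeq (GRCm38.p6), which changed 0 symbols. Averaging the probes of a gene gave 12761 features, with 0 missing values. Groups came from the labels, and replicate numbers follow the series order. Features were fitted with limma 3.58.1 in R 4.3.3 over the 16 arrays, with terms for cell type and for dye orientation, and called at an adjusted p under 0.05. Confidence in differences is given as standard errors, which treat arrays as independent. Fits and permutations were tested on simulated data. Genes named are the 10, up to 4 called genes of each list in each direction, the 3 most correlated genes of each, and cell type markers. Others, such as Vcan and Mmp7, were picked with their values in view. The 10 genes, the lists and the sets of arrays were chosen with earlier results of these data known. Alternatives were centring, scaling, the dye term, single probes, array weights, robust moderation, extreme values, 1 dye orientation, each array left out, the second slide number series (3 M833 arrays) and the sets of arrays. Settings for the gene lists were chosen after seeing the data.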

Additional observations from a re-analysis of the deposited data

Results flagged for a closer look

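Each of the 10 genes was examined for an array that lay far from the other 7 of its cell type, in 20 groups of 8 arrays, where chance gives about 1 in 20. In WT, Mmp9 stood at 1.36 on replicate 1, and the next highest of the 8 arrays was at 0.53. Adamts4 stood at 0.96 on WT replicate 8, and the next highest array was at 0.76. Without WT replicate 8 Adamts4 was still lower in M833, at -0.38 (limma), and Mmp9 without WT replicate 1 was at -0.04 and not called.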

How the results depend on the processing

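Timp2, Mmp23, Adamts4 and Plat stayed lower in every setting and were called in all but the mean of each set of 4 arrays as 1 replicate. There limma called 0 features, 0 lower and 0 higher, and 0 of the 10 genes (1675 features had an unadjusted p under 0.05). The adjusted p of each of the 4 decreases was 0.271 in that setting (limma). Timp4 was called in 13 of 33 alternatives. With each array left out in turn, 2878 to 3295 features were called (1756 to 2049 lower, 1114 to 1265 higher), 4 to 4 of the 10 genes lower and 0 to 1 higher.

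Features called, lower and higher numbered 2000, 1220 and 780 with no dye term, 835, 548 and 287 in Cy5 only, 1100, 694 and 406 in Cy3 only, 1465, 903 and 562 with sets as a random block, 1685, 1024 and 661 without M833 replicates 1, 2, 5 and 6, and 1858, 1159 and 699 without M833 replicates 3, 4, 7 and 8. Without the 3 M833 arrays of the second slide number series 1348 were lower. In the first 6 of these settings, after scaling and with array weights 0 of the 10 genes were higher. Array weights added calls for Mmp2 at -0.28 and Timp3 at -0.45, with 6 of the 10 lower. Leaving out WT replicates 1, 2, 5 and 6 gave 7 of them lower. Leaving out WT replicates 3, 4, 7 and 8 gave 3 higher.

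Directions turned for Adamts1 at 0.011 after scaling, 0.068 with array weights, 0.28 without WT replicates 1, 2, 5 and 6 and 0.094 without M833 replicates 1, 2, 5 and 6, and it ran from -0.115 to 0.0093 with each array left out. They turned for Plaur at -0.026 with array weights and -0.32 without WT replicates 1, 2, 5 and 6. Against those WT replicates alone they turned for Mmp2 at 0.083 and Timp3 at 0.25. Mmp2 less Mmp9 was -0.13 in Cy3 only, -0.38 without WT replicates 1, 2, 5 and 6 and -0.063 without M833 replicates 3, 4, 7 and 8. Timp2 less Timp3 was 0.18 without WT replicates 1, 2, 5 and 6, and Adamts1 less Adamts4 -0.048 without WT replicates 3, 4, 7 and 8. Pairs called numbered 1 after scaling, 0 in Cy5 only, 0 in Cy3 only (fewer samples) and 1 without either M833 set.

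Of the related genes 2 were higher after centring, after scaling and without WT replicates 1, 2, 5 and 6. Against these WT replicates alone 5 were higher. With the random block 5 related genes were lower and 0 higher, 4 matrix genes lower and 2 fibroblast markers lower. Without M833 replicates 1, 2, 5 and 6 these were 6, 0, 2 and 1. Of matrix genes 11 were lower without WT replicates 1, 2, 5 and 6, while 5 were higher against these alone. The cause of these changes was not tested, and this holds for the settings with fewer samples too. No paired analysis was possible because the labels give no replicate numbers. Without channel intensities, signal over background is unknown.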
